A study of Homo sapiens with 24 samples.

Results

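The genes described here encode the proteins of tight junctions, desmosomes and gap junctions, with the catenins that link cadherins to the cytoskeleton. They were chosen by symbol from the deposited expression table: claudins (CLDN), occludin (OCLN), zonula occludens proteins (TJP), cingulin (CGN), F11R, MARVEL domain proteins (MARVELD), desmocollins (DSC), desmogleins (DSG), desmoplakin (DSP), plakophilins (PKP), plakoglobin (JUP), catenins (CTNNA, CTNNB, CTNND) and connexins (GJA, GJB, GJC). Of the 25541 gene entries, 49 carried such a symbol as their only name. Of these 49, 38 held 10 or more scaled fragments in 3 libraries and were tested among 20162 entries that met the same condition. The 11 below it, among them GJB1, GJB7, GJA4, CLDN6, CLDN10, CLDN19, CLDN22, CLDN24, CLDN25 and DSG1, each stayed under 10 scaled fragments in all 24 libraries. A further 13 entries joined such a symbol to the names of neighbouring genes, among them F11R, JUP, CTNND1, CLDN7 and PKP4, and were not analysed here.

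Tight junctions seal the space between epithelial cells. Claudins and the MARVEL proteins, occludin among them, span the membrane there, and zonula occludens proteins and cingulin form the plaque beneath. Desmosomes rivet cells together through the cadherins called desmogleins and desmocollins, which plakophilins and desmoplakin tie to keratin filaments. Gap junctions are channels built of connexins, through which small molecules pass from cell to cell.

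T47D is an established cell line from a luminal breast carcinoma, and 2 variants of it were compared: T47D-co, labelled as positive for the progesterone receptor (PR), and T47D-Y, labelled as PR null. Cells of each line were given interferon-alpha (IFN) at 20 IU per ml or water for 18 h, and then the synthetic progestin R5020 at 10 nM or its vehicle ethanol (EtOH) for 6 h. The 8 resulting groups, each named by line, EtOH or R5020, and water or IFN, held 3 libraries each, which the submitters describe as biological triplicates. There was 1 line of each kind, so receptor status and any other difference between the lines cannot be told apart.

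The libraries held between 14141355 and 33607459 estimated fragments. Pairs of libraries of a group correlated at r between 0.983 and 0.988 over the tested genes. PGR, the gene of PR, held 418 to 719 scaled fragments per T47D-Y library and 11810 to 27960 per T47D-co library, so every T47D-co library lay far above every T47D-Y library. In 4 libraries (T47D-Y EtOH water replicate 1, T47D-Y R5020 water replicates 1 and 2, and T47D-co EtOH water replicate 2) mitochondrial transcripts made up 0.942% to 1.07% of fragments, against 3.17% to 4.74% in the other 20. Markers of other cell types were low: the endothelial CDH5 reached at most 7.44 scaled fragments, and PTPRC, CD3E and LYZ stayed under 10 in all libraries.

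The sequences of 5 promoters are shown because their genes form a pair of neighbouring groups whose members moved together under R5020 in T47D-co. GJA3, GJB2 and GJB6 lie in a row on chromosome 13 within 94142 bases and rose, and CLDN3 and CLDN4 lie 29270 bases apart on chromosome 7 and fell. Each line gives the 250 bases before the gene's start in RefSeq (build GRCh38.p14), 5′ to 3′ on the gene's own strand. The windows are chr13:20161053-20161302 (minus strand) for GJA3, chr13:20192939-20193188 (minus) for GJB2, chr13:20230979-20231228 (minus) for GJB6, chr7:73770271-73770520 (minus) for CLDN3 and chr7:73830746-73830995 (plus) for CLDN4. Capitals mark 2 motifs, searched on both strands: TGTTCT, the hexamer of the element that PR and other steroid receptors bind, and the GC box GGGCGG, bound by SP and KLF factors.
GJA3: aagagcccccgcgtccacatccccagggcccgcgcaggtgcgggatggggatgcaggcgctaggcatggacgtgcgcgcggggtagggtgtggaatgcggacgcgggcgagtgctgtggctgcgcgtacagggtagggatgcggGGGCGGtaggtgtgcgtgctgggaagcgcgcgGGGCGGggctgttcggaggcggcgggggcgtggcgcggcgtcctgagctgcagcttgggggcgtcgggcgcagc
GJB2: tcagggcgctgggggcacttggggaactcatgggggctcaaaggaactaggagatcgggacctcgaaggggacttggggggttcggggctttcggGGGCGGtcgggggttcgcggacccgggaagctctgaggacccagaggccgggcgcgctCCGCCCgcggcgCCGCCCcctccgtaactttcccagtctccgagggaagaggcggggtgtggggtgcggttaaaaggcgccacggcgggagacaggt
GJB6: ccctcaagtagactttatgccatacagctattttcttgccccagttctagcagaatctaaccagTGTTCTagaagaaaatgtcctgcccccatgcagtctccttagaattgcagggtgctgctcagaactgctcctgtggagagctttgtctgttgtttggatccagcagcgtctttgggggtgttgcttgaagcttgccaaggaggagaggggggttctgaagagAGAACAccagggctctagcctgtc
CLDN3: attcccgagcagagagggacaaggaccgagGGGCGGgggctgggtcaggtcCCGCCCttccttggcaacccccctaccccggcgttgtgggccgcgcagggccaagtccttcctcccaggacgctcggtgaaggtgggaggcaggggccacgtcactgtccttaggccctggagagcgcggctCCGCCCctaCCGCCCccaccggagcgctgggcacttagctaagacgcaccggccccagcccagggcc
CLDN4: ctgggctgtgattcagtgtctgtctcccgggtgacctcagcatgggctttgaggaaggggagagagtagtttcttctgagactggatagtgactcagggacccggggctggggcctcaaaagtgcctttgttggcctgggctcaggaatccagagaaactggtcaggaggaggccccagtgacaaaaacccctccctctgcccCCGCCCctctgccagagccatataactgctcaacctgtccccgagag
The GJA3 window held 2 GC boxes, that of GJB2 held 3, that of CLDN3 held 4 and that of CLDN4 held 1. GJB6 differed from its neighbours in letters, with no GC box and 2 hexamers. The RefSeq promoter table had 42 windows for 28 of the tested junction genes, some of them overlapping windows of 1 gene. GGGCGG was in 24 of these windows (57.1%) and TGTTCT in 4 (9.52%), against 42.6% and 12.4% of the 35116 promoters in that table. The full palindromic steroid receptor element, searched on both strands and able to overlap the hexamer, was in 0 of the 42 windows and in 0.327% of all promoters, which says only that these letters are not within 250 bases of those starts. The E-box CAGGTG, the letters bound by SNAI factors, was in 9 of the 42 windows (21.4%) and in 17.5% of all.

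R5020 changed most junction genes in T47D-co. With water, 29 of the 38 passed the test (limma, adjusted p under 0.05), 18 higher and 11 lower, while 56.5% of all tested genes passed, 26.6% higher and 30.0% lower. The 18 include GJB6, which was tested because of the groups in which it is high. Of the 38, 15 passed with a change of at least 2-fold, as did 15.2% of all tested genes. The median log2 fold change of the 38 was 0.18, against -0.04 over all tested genes, and the median size of the change was 0.73 against 0.35. Connexins leaned upward, with 7 of 10 higher and 2 lower, whereas claudins split, with 3 of 11 higher and 4 lower. Desmosome genes gave 4 of 7 higher and 2 lower, the tight junction plaque and MARVEL genes 3 of 7 higher and 2 lower, and the catenins 1 of 3 in each direction. Fold changes below are on the scale of log2(scaled fragments + 1), with the standard error (SE) of the fit, and levels are scaled fragments per library, which are not corrected for gene length and so are not compared between genes.

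**Figure D1:**
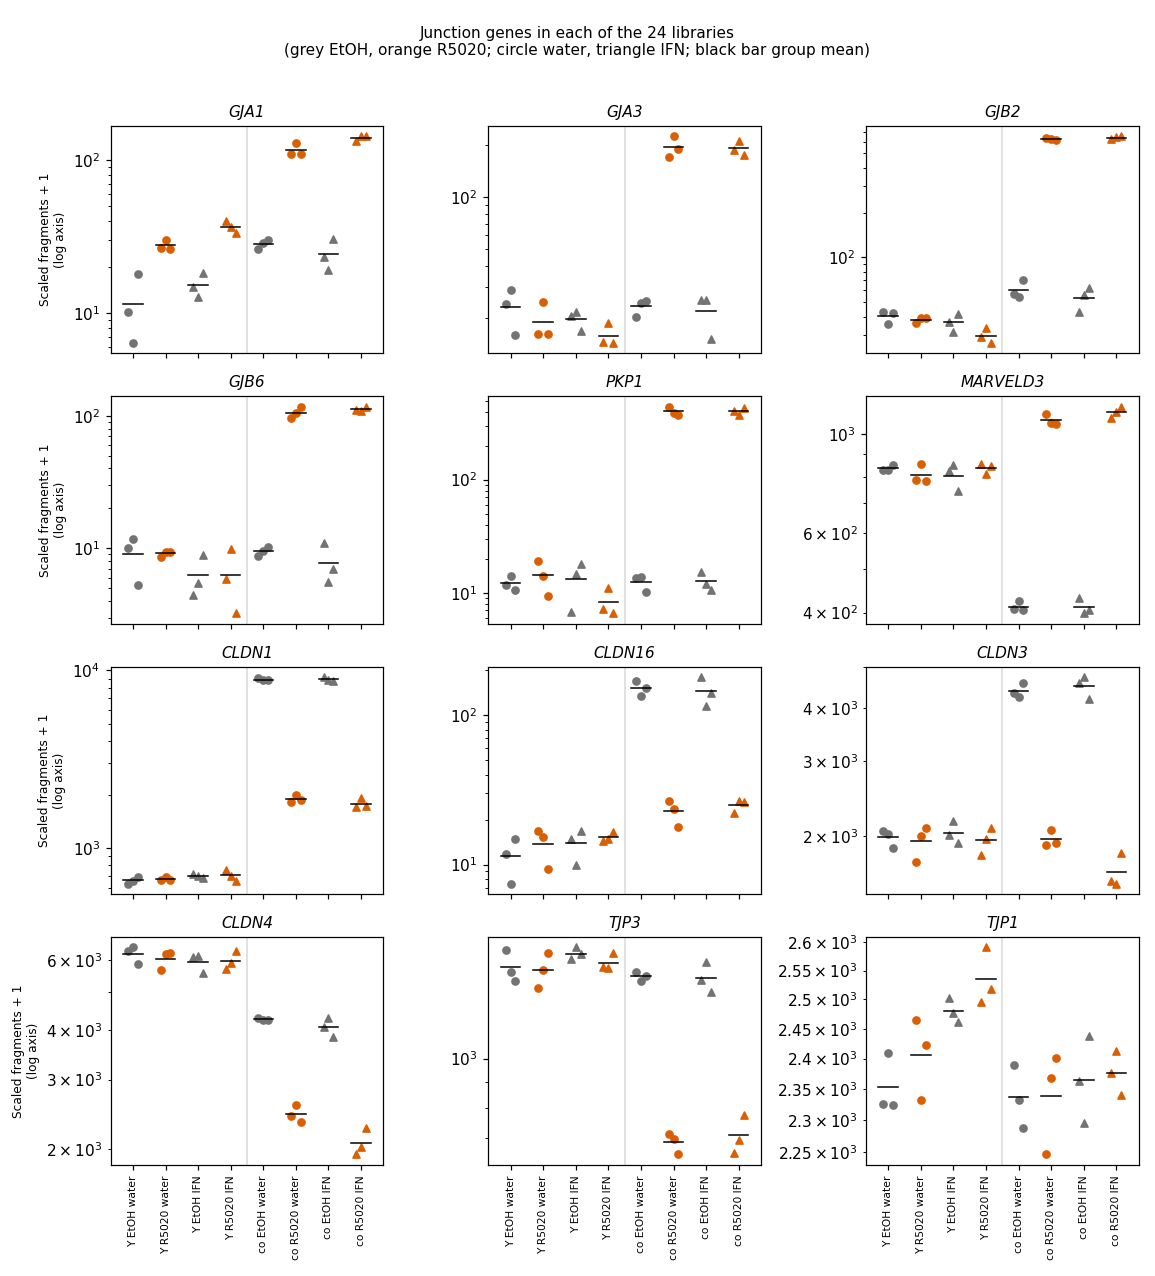
Scaled fragments plus 1 (log axis, a separate range in each panel) of 12 junction genes in each of the 24 libraries, grey for EtOH, orange for R5020, circles for water and triangles for IFN, with a black bar at the group mean. GJA3, GJB2, GJB6 and PKP1 are high in the T47D-co R5020 libraries alone, CLDN1, CLDN16 and CLDN3 are high in the T47D-co EtOH libraries, and TJP1 varies only between 2246 and 2590.

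The connexins of the chromosome 13 row rose most among the gap junction genes. GJB2 encodes connexin 26, a channel protein of many epithelia including the breast, and its T47D-co libraries with EtOH and water held 55.8, 52.8 and 69.1 scaled fragments. With R5020 and water they held 633, 627 and 619. Every R5020 library lay above every EtOH library, and the log2 fold change was 3.39 (SE 0.14, adjusted p = 1.19e-16), a 10.5-fold rise. GJB6, which encodes connexin 30, went from 7.70, 8.57 and 9.22 to 95.7, 103 and 114, a log2 fold change of 3.47 (SE 0.37, adjusted p = 8.90e-09). GJA3, which encodes connexin 46, known best from the eye lens, went from 19.3, 23.6 and 24.2 to 168, 223 and 187, a log2 fold change of 3.05 (SE 0.24, adjusted p = 4.05e-11). For all 3 genes the groups stood clear of each other. GJB6 reached 10 scaled fragments in 7 libraries, 6 of them T47D-co with R5020, and so was tested because of the groups in which it is high. The promoters printed above share no motif searched here across the 3 genes, since the GC boxes were in GJA3 and GJB2 and the hexamers in GJB6.

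GJA1 encodes connexin 43, the connexin of myoepithelial cells in the normal breast, and also rose. Its T47D-co libraries with EtOH and water held 25.02, 27.8 and 28.8 scaled fragments, and those with R5020 and water held 109, 128 and 109. The ranges did not overlap, and the log2 fold change was 2.04 (SE 0.26, adjusted p = 1.80e-07). Smaller rises passed for GJC1, which encodes connexin 45 (log2 fold change 0.61, SE 0.06), and for GJC3 (0.75, SE 0.23), which is 53.6% of a shared locus whose sum rose by 2.14.

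GJB5, another connexin gene, lies at a locus that its entry shares with others. It fell from 74.9, 70.9 and 72.9 scaled fragments to 37.7, 26.2 and 41.8, with no overlap, a log2 fold change of -1.05 (SE 0.16). The sum over the locus, of which it is 12%, did not pass, at a log2 fold change of 0.04 (adjusted p = 0.514). GJA5, which encodes connexin 40, was near the floor: at most 4.45 scaled fragments with EtOH and at most 1.30 with R5020, a called log2 fold change of -1.39 (SE 0.45). That call ended without T47D-co R5020 water replicate 1 (-1.04, adjusted p = 0.0686), with an added 5 in place of 1 (-0.55) and for the sum over its locus (-0.81), and with IFN the estimate was 0.80 (SE 0.45, adjusted p = 0.128).

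Of the claudins, CLDN1, CLDN16, CLDN3 and CLDN4 fell. CLDN1, a sealing claudin, stood at 9028, 8862 and 8794 scaled fragments in T47D-co with EtOH and water, and at 1824, 1990 and 1873 with R5020 and water. The 2 groups were far apart, with a log2 fold change of -2.23 (SE 0.05, adjusted p = 1.73e-22), or 4.69-fold lower. CLDN16, known for magnesium handling in the kidney, lies 64 bases from CLDN1 in the deposited coordinates (chromosome 3 of hg19). It went from 167, 134 and 151 scaled fragments to 25.8, 22.7 and 16.9, a log2 fold change of -2.75 (SE 0.27, adjusted p = 2.46e-09). Both genes of this neighbouring pair dropped. Of the 4 other tested entries within 500000 bases, 2 were also called lower, TP63 (log2 fold change -0.86, and -1.77 with IFN) and the entry that holds IL1RAP (-0.77).

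CLDN3 and CLDN4, sealing claudins of mammary and other glandular epithelia, fell less far. CLDN3 went from 4356, 4263 and 4598 scaled fragments to 1905, 2065 and 1921, a log2 fold change of -1.17 (SE 0.07, adjusted p = 1.08e-13). CLDN4 went from 4285, 4243 and 4249 to 2425, 2581 and 2345, a log2 fold change of -0.80 (SE 0.06, adjusted p = 3.06e-12). Neither gene's R5020 range touched its EtOH range. With water, FZD9 alone of the 20 other tested entries within 500000 bases of this pair passed with at least 2-fold (log2 fold change 1.31). Calls under 2-fold went both ways, among them ABHD11 (-0.58) and WBSCR27 (-0.54) lower and LIMK1 (0.43) and NSUN5 (0.37) higher. With IFN, WBSCR28 passed at -1.54 and FZD9 stood at 0.94. Of the 10 around the chromosome 13 connexins, IL17D alone passed 2-fold with water, at 1.24, and stood at 0.92 with IFN. MPHOSPH8 (-0.52) and the entry that holds IFT88 (-0.43) were among those called lower there with water.

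CLDN8, CLDN5 and CLDN15 rose. CLDN8, which encodes a barrier claudin of the kidney and gut, went from 62.6, 64.2 and 76.0 scaled fragments to 142, 152 and 147, a log2 fold change of 1.11 (SE 0.19). CLDN5, best known from endothelium, went from 21.2, 22.1 and 24.2 to 50.6, 58.0 and 45.5, a log2 fold change of 1.15 (SE 0.25), in cells where CDH5 was under 10 throughout. CLDN15, a pore-forming claudin of the gut, went from 181, 232 and 226 to 370, 428 and 429, a log2 fold change of 0.94 (SE 0.10). In all 3 genes each R5020 library exceeded each EtOH library. CLDN18 did not pass with water (log2 fold change 1.15, SE 0.59, adjusted p = 0.106) and passed with IFN (1.79, SE 0.59, adjusted p = 0.0121), at 3.90 to 15.9 scaled fragments in the R5020 libraries. It reached 10 scaled fragments in 4 libraries, all of them T47D-co with R5020, so it was tested only because of the group in which it is high. CLDN2, CLDN9 and CLDN20 did not pass in either setting, although the locus of CLDN20 was lower as a whole with water (-0.34).

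The tight junction core was uneven. MARVELD3, a MARVEL protein of tight junctions, went from 406, 422 and 404 scaled fragments to 1105, 1055 and 1051, a log2 fold change of 1.38 (SE 0.05, adjusted p = 4.59e-18). The groups were well separated, and the sum over its shared locus, of which it is 38.6%, rose as well, by a log2 fold change of 0.92. MARVELD1 rose from 1327, 1179 and 1241 to 1675, 1739 and 1622 (log2 fold change 0.43, SE 0.07), and MARVELD2, or tricellulin, the MARVEL protein of three-cell contacts, did not pass (-0.08, SE 0.05). OCLN, occludin itself, went from 264, 340 and 361 to 393, 406 and 364, a called log2 fold change of 0.28 (SE 0.10, adjusted p = 0.0206). The ranges were apart by a narrow margin. That call ended when T47D-co EtOH water replicate 1 was left out (0.14, adjusted p = 0.222), and likewise without T47D-co R5020 water replicate 1 (0.27) or 2 (0.25).

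The plaque proteins differed from each other. TJP3, or ZO-3, stood at 1474, 1415 and 1448 scaled fragments with EtOH and at 712, 696 and 650 with R5020, a log2 fold change of -1.08 (SE 0.06, adjusted p = 1.10e-13). Its paralog TJP1, or ZO-1, the main scaffold of the plaque, stood at 2389, 2331 and 2287 with EtOH and at 2246, 2367 and 2400 with R5020. These ranges overlapped, and the log2 fold change of TJP1 was 0.00 with a 95% interval from -0.07 to 0.07. CGN, cingulin, fell from 2259, 2181 and 2212 to 1692, 1652 and 1580 (log2 fold change -0.43, SE 0.04).

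**Figure D2:**
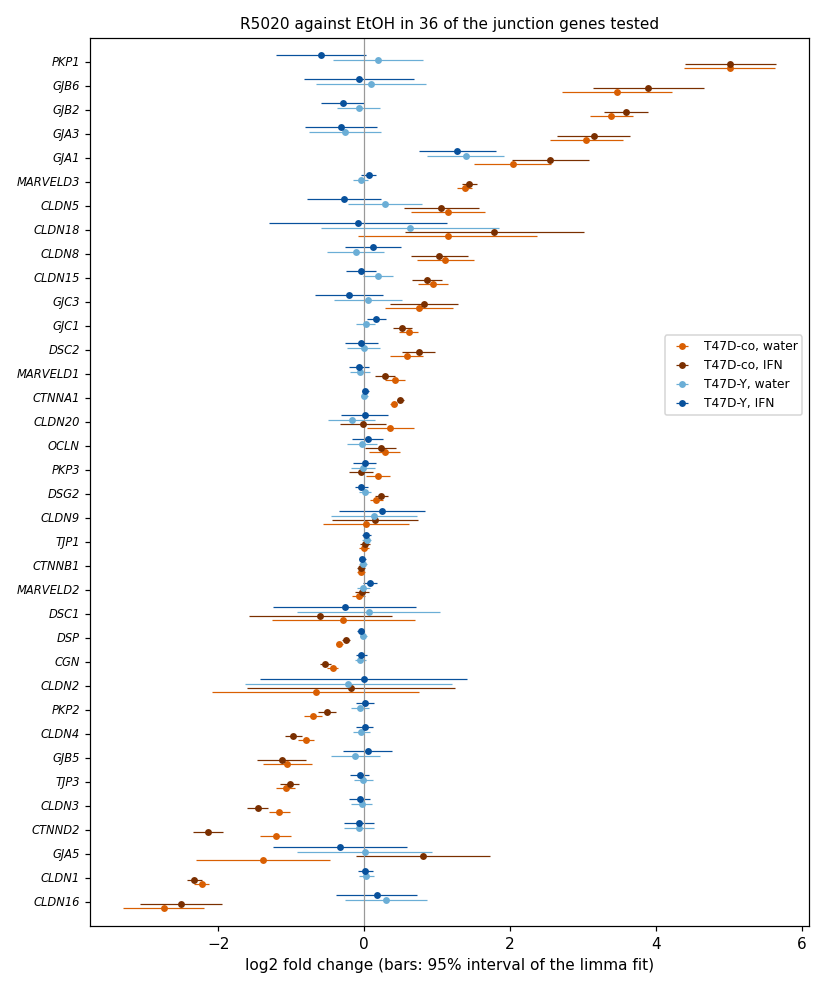
Log2 fold change of R5020 against EtOH for 36 of the 38 junction genes (points) with the 95% interval of the limma fit (bars), in T47D-co (orange, brown) and T47D-Y (light and dark blue), each with water or IFN. In T47D-co the changes run from -2.75 (CLDN16) to 5.02 (PKP1), and in T47D-Y GJA1 is the gene whose estimate passes 1.

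Of the desmosome genes, PKP1 had the largest R5020 change of all 38. It encodes plakophilin 1, a desmosomal plaque protein of stratified epithelia. Its T47D-co libraries with EtOH and water held 12.5, 12.9 and 9.22 scaled fragments, and those with R5020 and water held 442, 385 and 376. No EtOH library came near the R5020 libraries, and the log2 fold change was 5.01 (SE 0.30, adjusted p = 1.76e-13), a 32.3-fold rise. PKP2, the plakophilin of simple epithelia and heart, moved the other way, from 447, 424 and 419 to 266, 281 and 244 (log2 fold change -0.70, SE 0.06). PKP3 had a small call with water (0.19, SE 0.08, adjusted p = 0.0438) that ended when any 1 of T47D-co EtOH water replicates 1, 2 and 3 or T47D-co R5020 water replicates 2 and 3 was left out (0.15 to 0.20), and with IFN it stood at -0.04. 

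Desmosomal cadherins changed little in size. DSC2, the desmocollin of simple epithelia, rose from 53.9, 70.7 and 57.6 scaled fragments to 83.7, 88.1 and 101 (log2 fold change 0.58, SE 0.11), and DSG2, its desmoglein partner, rose from 1121, 1037 and 1096 to 1213, 1258 and 1181 (0.17, SE 0.04). DSP, which anchors keratin filaments, fell from 34240, 34880 and 35150 to 27440, 26800 and 28040 (-0.34, SE 0.03). All 3 pairs of ranges were apart although the changes were under 2-fold. DSC1 was at or below 3.46 scaled fragments in these 6 libraries and did not pass.

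Catenins split in the same comparison. CTNNA1, alpha-catenin, rose from 6402, 6540 and 6390 scaled fragments to 8654, 8380 and 8551 (log2 fold change 0.40, SE 0.02, adjusted p = 5.62e-14). CTNNB1, beta-catenin, stood at 7771, 7705 and 7499 with EtOH and at 7571, 7537 and 7211 with R5020, and its log2 fold change of -0.04 (95% interval -0.10 to 0.01) did not pass, while its locus sum did at -0.06 (adjusted p = 0.0388). CTNND2, delta-catenin, mostly known from neurons, fell from 84.7, 94.9 and 65.7 to 39.6, 31.1 and 32.5 (-1.22, SE 0.10, adjusted p = 8.77e-11).

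Lineage markers moved in these same libraries. The summed level of 8 luminal markers ranged from 90060 to 90610 scaled fragments with EtOH and water and from 61770 to 64060 with R5020 and water. The markers did not move alike. Mean GATA3 went from 20940 to 11850, ESR1 from 18780 to 10920, FOXA1 from 7172 to 2363 and KRT18 from 6929 to 4896. KRT8 went from 13880 to 11850, KRT19 from 21060 to 19630 and EPCAM from 1504 to 1547, and TFF1 was below the filter. That of 4 basal markers ranged from 478.8 to 590.3 and from 646 to 660.5, and of these 4 the basal keratin KRT5 alone had a higher mean with R5020, 261.1 against 0.559 with EtOH. The means of the other 3 were lower: ACTA2 went from 438 to 348, MYH11 from 68.3 to 33.0 and TP63 from 25.2 to 13.4. In bulk RNA, fewer cells of a type and less RNA per cell cannot be told apart. The part of these shifts in the junction gene changes was not tested.

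The R5020 response was measured again in 6 other T47D-co libraries, all given IFN. There 27 of the 38 junction genes passed, 17 higher and 10 lower, against 58.2% of all tested genes, 27.5% higher and 30.6% lower. The 17 include GJB6 and CLDN18, which were tested because of the groups in which they are high. Both settings called 26 genes, which is 89.7% of the calls with water and 96.3% of those with IFN, and all 26 had the same direction in both. Across the 38 genes, the log2 fold changes of the 2 settings correlated at r = 0.96 (Spearman 0.92), and across all 20162 tested genes at r = 0.88. PKP1 held 14.3, 10.9 and 9.49 scaled fragments with EtOH and IFN and 406, 374 and 431 with R5020 and IFN, again a clear gap (log2 fold change 5.02, SE 0.30). GJB2 held 41.9, 54.5 and 61.7 and then 622, 642 and 653 (3.59, SE 0.14), and CLDN1 held 9186, 8893 and 8742 and then 1695, 1908 and 1733 (-2.33, SE 0.05). The levels of all 3 genes thus lay in the same ranges as with water. GJA5, with 0 to 4.45 scaled fragments in T47D-co, was the gene farthest from equality.

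**Figure D3:**
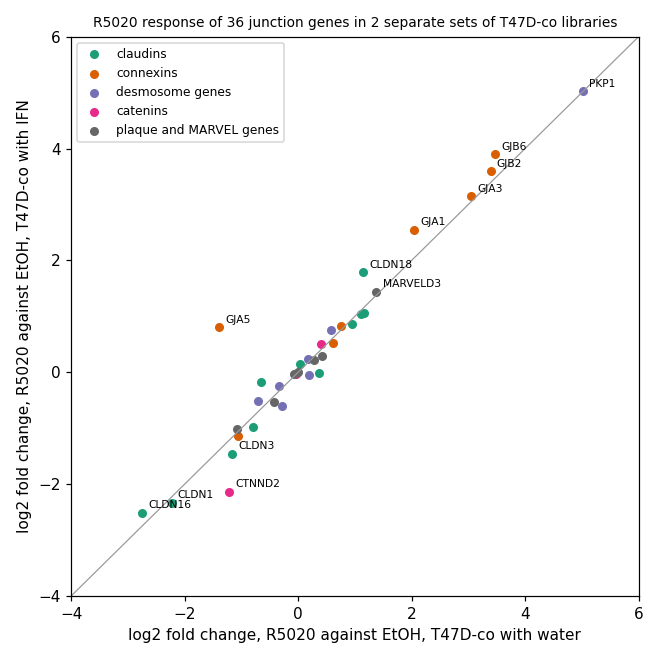
Log2 fold change of R5020 against EtOH in T47D-co with water (horizontal axis) and with IFN (vertical axis) for 36 of the 38 junction genes, coloured by family, with the line of equality. Most points lie near the line, PKP1 at 5.01 and 5.02, while CTNND2 (-1.22 and -2.14) and GJA5 (-1.39 and 0.80) lie off it.

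In T47D-Y, 1 of the 38 passed under R5020 with water, where 0.218% of all tested genes did, and 1 with IFN, where 0.298% did. It was GJA1 both times. With water its T47D-Y libraries held 9.09, 5.38 and 17.0 scaled fragments with EtOH and 25.6, 29.0 and 25.2 with R5020, a log2 fold change of 1.39 (SE 0.26, adjusted p = 0.00913). With IFN they held 13.8, 11.7 and 17.1 and then 39.1, 35.2 and 32.4, a log2 fold change of 1.28 (SE 0.26, adjusted p = 0.0204). In both settings each R5020 library exceeded each EtOH library. The GJA1 call did not hold in every fit. With water, 3 of 6 single-library omissions lost it: EtOH replicate 1 (1.36) or 2 (1.03) or R5020 replicate 2 (1.33). With IFN, 4 of 6 lost it: EtOH replicate 1 (1.27) or 2 (1.16) or R5020 replicate 1 (1.21) or 2 (1.28). Fitting only the compared groups also lost it in both settings (limma adjusted p = 0.444 with water and 0.224 with IFN). The cause of these losses was not tested.

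The difference between the lines in the R5020 response was itself tested, as line by R5020 with water. It passed for 24 of the 38, 14 with a more positive change in T47D-co and 10 with a more negative one, against 44.6% of all tested genes, 21.6% and 23.0% in these directions. The 14 include GJB6, which was tested because of the groups in which it is high. GJB2, with 42.1, 34.4 and 41.5 scaled fragments in T47D-Y with EtOH and 35.4, 37.96 and 37.9 with R5020, differed by 3.47 on the log2 scale (SE 0.20), and PKP1, at 10.7, 12.9 and 9.57 and then 18.1, 13.2 and 8.41, differed by 4.83 (SE 0.43). CLDN1, at 631, 652 and 690 and then 664, 692 and 659 in T47D-Y, differed by -2.26 (SE 0.07). In these 3 genes the T47D-Y groups overlapped while the T47D-co groups did not. Among the 24, the call of CLDN5 (0.87) did not survive 8 of 12 single-library omissions, with values from 0.61 (without T47D-Y R5020 water replicate 1) to 1.03 over the 12, and that of DSG2 (0.15) did not survive 6 of 12, with values from 0.12 to 0.18. GJA1 was not among the 24: its difference was 0.65 with a 95% interval from -0.10 to 1.40 (adjusted p = 0.158).

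The lines also differed before any progestin. In EtOH and water, 31 of the 38 junction genes differed between T47D-co and T47D-Y, 12 higher in T47D-co and 19 lower, against 63.2% of all tested genes, 29.7% higher and 33.4% lower. On the deposited values without rescaling the split was 9 and 22, and the share of all tested genes on those values is not given here. Among the 24 genes alone at their locus the split was 11 and 7. The share of all tested entries alone at their locus is not given here, so that split is not a result about junction genes in particular. The median log2 difference, T47D-co minus T47D-Y, was -0.25 for the 38 and -0.04 for all tested genes. The lower genes here and with IFN include DSC1, GJA5 and CLDN2, which met the filter only through T47D-Y libraries. Their direction was thus favoured by the filter, and they also enter this median. In the separate libraries given EtOH and IFN, 29 differed, 11 higher and 18 lower, against 62.6% of all tested genes, 29.6% higher and 33.0% lower. Called in both were 28, all with the same direction in both, and the differences correlated at r = 0.99 across the 38 genes.

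CTNND2 marked T47D-Y most strongly. Its T47D-Y libraries with EtOH and water held 14910, 14310 and 15310 scaled fragments and its T47D-co libraries 84.7, 94.9 and 65.7. The levels did not come near each other, and the log2 difference was -7.50 (SE 0.10, adjusted p = 5.38e-27), or 181-fold lower in T47D-co. The desmocollins followed. DSC2 stood at 1398, 1430 and 1486 in T47D-Y and at 53.9, 70.7 and 57.6 in T47D-co, a log2 difference of -4.55 (SE 0.11). DSC1, the desmocollin of upper epidermis, stood at 30.5, 47.4 and 35.2 in T47D-Y and at 0 to 3.46 in T47D-co, a difference of -4.30 (SE 0.48) that depends on the added 1. The 2 desmocollins share a locus, of which DSC2 is 95.2% and DSC1 is 2.33%, and the sum over it differed by -4.55. DSC1 and GJA5 reached 10 scaled fragments in the 12 T47D-Y libraries alone and CLDN2 in 4 of them, so these 3 genes were tested only because of the line in which they are high. For each desmocollin every T47D-Y library exceeded every T47D-co library.

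Other desmosome genes leaned the same way except DSP. PKP2 stood at 758, 759 and 768 in T47D-Y and 447, 424 and 419 in T47D-co (log2 difference -0.82, SE 0.06), DSG2 at 1911, 1820 and 1828 against 1121, 1037 and 1096 (-0.77, SE 0.04), and PKP3 at 2190, 2197 and 2031 against 1507, 1462 and 1477 (-0.53, SE 0.08). DSP stood at 15080, 14770 and 15360 in T47D-Y and at 34240, 34880 and 35150 in T47D-co, a difference of 1.21 (SE 0.03). Desmoplakin was thus the single desmosome gene called higher in T47D-co, while PKP1 did not differ beyond its error (0.05, 95% interval -0.57 to 0.67).

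**Figure D4:**
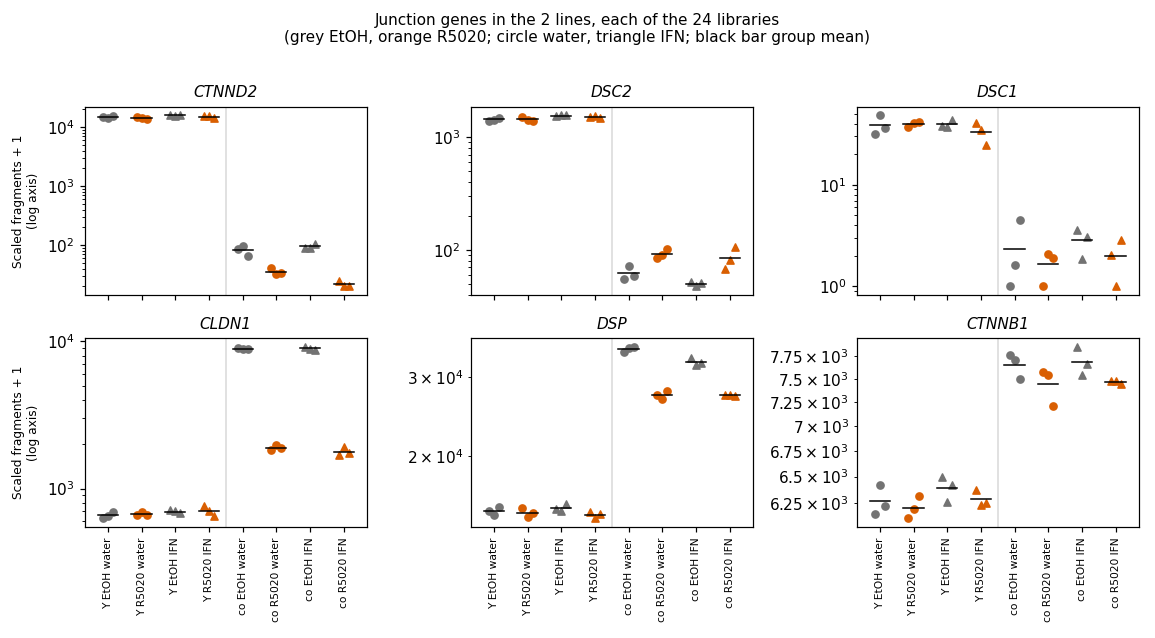
Scaled fragments plus 1 (log axis, a separate range in each panel) of 6 junction genes in each of the 24 libraries, T47D-Y left and T47D-co right of the grey line, with a black bar at the group mean. CTNND2, DSC2 and DSC1 are higher in all 12 T47D-Y libraries, and CLDN1, DSP and CTNNB1 in all 12 T47D-co libraries.

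Claudins differed in both directions. CLDN1 stood at 631, 652 and 690 scaled fragments in T47D-Y and at 9028, 8862 and 8794 in T47D-co with EtOH and water, a log2 difference of 3.76 (SE 0.05, adjusted p = 4.03e-27). Its neighbour CLDN16 stood at 10.7, 6.45 and 13.8 against 167, 134 and 151, a difference of 3.79 (SE 0.27). Both were far higher in T47D-co, and in T47D-co R5020 water they reached 1824 to 1990 and 16.9 to 25.8, still above the T47D-Y libraries with water. CLDN3 (1.15, SE 0.07), CLDN8 (1.08, SE 0.19) and CLDN15 (0.89, SE 0.10) were higher in T47D-co as well, while CLDN4 (-0.54, SE 0.06) and CLDN9 (-0.83, SE 0.28) were lower. CLDN9 was low, at 7.11 to 36.8 scaled fragments over all libraries. Its call with water was lost with quantile normalization (-0.59, limma adjusted p = 0.0744). CLDN2, a pore-forming claudin, was called lower (-2.08, SE 0.69) from 8.17 to 14.1 scaled fragments in T47D-Y and 0 to 6.85 in T47D-co. That call was lost without T47D-co EtOH water replicate 2 (-1.37, adjusted p = 0.101), and the locus, of which CLDN2 is 0.489%, differed by -0.34. The CLDN20 difference of -0.38 turned to 0.18 when its locus, of which it is 3.28%, was summed.

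Among connexins, GJA1 was higher in T47D-co with water (25.02, 27.8 and 28.8 against 9.09, 5.38 and 17.0, log2 difference 1.42, SE 0.26), as were GJB2 (0.57, SE 0.14) and GJC1 (0.34, SE 0.06). With EtOH and IFN the GJA1 difference was 0.66, and its call was lost in 3 of 6 single-library omissions. Without T47D-co EtOH IFN replicate 3 it was 0.48 (limma adjusted p = 0.144). GJB5 (-1.04, SE 0.16) and GJA5 (-2.93, SE 0.45) were lower, and the locus that GJB5 shares was lower as a whole (-1.12). GJA3 and GJB6, the other chromosome 13 connexins, did not differ beyond their errors (0.06, SE 0.24, and 0.15, SE 0.37). MARVELD1 was higher in T47D-co (1.35, SE 0.07) and MARVELD3 lower (-1.02, SE 0.05). With R5020 and water MARVELD3 reached 1051 to 1105 in T47D-co, above its 783 to 856 in T47D-Y under the same treatment. TJP1 and TJP3 did not pass with water (-0.01, 95% interval -0.08 to 0.06, and -0.06, 95% interval -0.19 to 0.08), and OCLN was lower (-0.40, SE 0.10). Of the widely used catenins, CTNNA1 was lower in T47D-co (8054, 7947 and 7760 in T47D-Y against 6402, 6540 and 6390, log2 difference -0.30, SE 0.02) and CTNNB1 higher (6157, 6423 and 6225 against 7771, 7705 and 7499, 0.29, SE 0.03). Neither pair of ranges overlapped. On the deposited values without rescaling, the differences of CTNNB1 (0.05, adjusted p = 0.0826) and GJC1 (0.11, adjusted p = 0.139) did not pass.

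Few junction genes passed for IFN. Without R5020, 0 of the 38 passed in T47D-co, against 1.00% of all tested genes, and 0 passed in T47D-Y, against 4.44%. At an unadjusted p under 0.05 limma gave 5 and 3 of the 38, and 1773 and 3422 of all 20162 tested genes. With voom weights 1 of the 38 passed in T47D-co. The line by IFN difference passed for 0 of the 38, where 0.377% of all tested genes passed. At an unadjusted p under 0.05 it gave 5 of the 38 and 1555 of all 20162. These counts depend on the common scaling: the deposited values of the T47D-Y libraries with water and with IFN differ from it by 0.27 and -0.21 on the log2 scale, and those of T47D-co by 0.05 and -0.13. On the deposited values 16 junction genes were called lower with IFN in T47D-co and 26 in T47D-Y. The share of all tested genes called on those values is not given here, so these counts are not a result about junction genes in particular.

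In T47D-co given R5020, 5 of the 38 passed for IFN against water, 1 higher and 4 lower, where 11.2% of all tested genes passed, 7.56% higher and 3.69% lower. CTNND2 had the largest change: its libraries held 39.6, 31.1 and 32.5 scaled fragments with R5020 and water and 23.9, 19.4 and 19.0 with R5020 and IFN, a log2 fold change of -0.70 (SE 0.10, adjusted p = 7.91e-05). The IFN libraries were all lower, and the call was lost with voom weights (-0.73, adjusted p = 0.235) and when only these groups were fitted (adjusted p = 0.0982). PKP3 (-0.31, SE 0.08), CLDN3 (-0.27, SE 0.07) and CLDN4 (-0.24, SE 0.06) fell by less than 2-fold. CTNNA1 rose by 0.08 (SE 0.02), and on the deposited values it was lower with IFN, at -0.11. Leaving out R5020 IFN replicate 1 left CTNND2 alone, with CLDN4 at -0.20, CLDN3 at -0.23 and PKP3 at -0.28, and leaving out R5020 water replicate 2 or R5020 IFN replicate 2 left 2 calls.

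The interaction of R5020 and IFN in T47D-co passed for 1 of the 38, against 1.01% of all tested genes. It was CTNND2, with 89.4, 89.9 and 106 scaled fragments with EtOH and IFN in addition to the values above. Its R5020 change was -1.22 with water and -2.14 with IFN, a difference of -0.93 (SE 0.14, adjusted p = 0.00123). The call was lost with voom weights (-0.91, adjusted p = 0.3) and when only these 4 groups were fitted (adjusted p = 0.122). In T47D-Y given R5020, where 4.76% of all tested genes passed, MARVELD2 alone did, from 805, 812 and 817 scaled fragments with water to 947, 884 and 883 with IFN. That log2 fold change of 0.16 (SE 0.05, adjusted p = 0.046) was -0.33 on the deposited values, and the call was lost without any 1 of the 6 libraries.

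**Figure D5:**
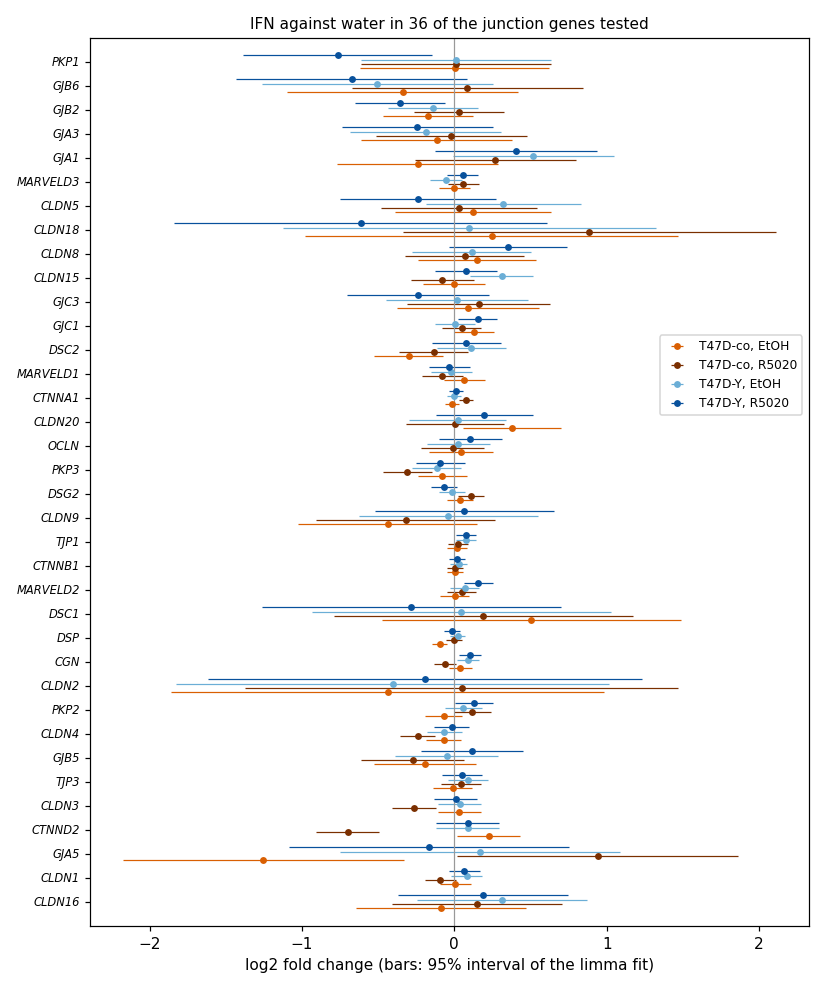
Log2 fold change of IFN against water for 36 of the 38 junction genes (points) with the 95% interval of the limma fit (bars), in T47D-co (orange, brown) and T47D-Y (light and dark blue), each with EtOH or R5020. Most intervals cross 0, and CTNND2 in T47D-co with R5020 stands at -0.70.

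Junction and polarity partners outside the symbols above were counted from a list of 41 genes, of which 26 could be tested. R5020 with water raised 6 and lowered 14 of them in T47D-co, where 26.6% and 30.0% of all tested genes passed in these directions. In T47D-Y 0 of the 26 passed by limma, where 0.218% of all did. At an unadjusted p under 0.05 it gave 1 of the 26 and 849 of all 20162. JAM2, a junctional adhesion molecule, fell from 107, 103 and 103 scaled fragments to 44.1, 51.5 and 42.2 (log2 fold change -1.17, SE 0.12), with no overlap. Between the lines, PVRL3, or nectin 3, stood at 2.48, 2.15 and 5.32 in T47D-Y and at 246, 257 and 247 in T47D-co (5.93, SE 0.31). PVRL3 reached at most 10.09 scaled fragments in T47D-Y, so it was tested only because of the line in which it is high. The size of its difference depends on the added 1. PANX2, a pannexin, was also higher in T47D-co (2.30, SE 0.21), and AMOTL1, an angiomotin of the tight junction, was lower (-1.58, SE 0.05). The adherens junction cadherin CDH2 was under 10 in all libraries.

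Transcription factors known to act on epithelial junction genes moved as well. Of 15 listed, 8 could be tested, and in T47D-co with water R5020 raised 5 and lowered 2, all 7 by at least 2-fold, as 15.2% of all tested genes were. GRHL2, a grainyhead factor that drives claudin and cadherin genes in epithelia, went from 13330, 13320 and 13190 scaled fragments to 39590, 40340 and 41020 (log2 fold change 1.60, SE 0.03), and GRHL1 from 896, 882 and 990 to 3142, 3172 and 3165 (1.78, SE 0.04). GRHL3, the other grainyhead gene, fell from 445, 478 and 522 to 64.0, 49.6 and 63.7 (-3.01, SE 0.10). None of these EtOH and R5020 ranges overlapped. The Krüppel-like factors KLF4 and KLF5 rose by 2.32 (SE 0.11) and 1.82 (SE 0.05), the repressor SNAI1 rose by 2.62 (SE 0.27) from 11.6 to 16.1 up to 79.3 to 103 scaled fragments, and TWIST1 fell by 2.05 (SE 0.28). In T47D-Y, KLF4 alone of the 8 passed under R5020 with water (0.61, SE 0.11, adjusted p = 0.00899), and with IFN its change was 0.19 (SE 0.11, adjusted p = 0.935). Between the lines, KLF5 was lower in T47D-co (-3.45, SE 0.05), GRHL3 was lower (-1.61, SE 0.10) and KLF4 higher (1.41, SE 0.11). No link between these factors and the junction genes was tested.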

How the data were processed

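RNA of 24 cultures, 3 in each of 8 groups, was sequenced on an Illumina MiSeq, per the labels' protocols. The submitters' processing notes name TopHat2 2.0.12, Cufflinks 2.2.1 and the builds GRCh37 and hg19; their settings are not given in the sources used here. The deposited values are a signal per gene entry: estimated fragments divided by 1 factor per library, which the authors set separately in 4 blocks of 6 libraries (line by IFN), as the values show. That factor (0.637 to 1.36) was read from the smallest steps of the values, and 98.2% to 99.2% of entries with no overlapping entry held a whole number of such steps within 0.05, against 61.9% to 65.0% of all entries. Values were multiplied by the inverse factor and rescaled with median-of-ratios factors over 14202 entries with a mean of at least 50 fragments. 1 line without a gene and 25 entries with repeated symbols were left out. Entries with at least 10 in 3 libraries were tested with limma 3.58.1 in R 4.3.3 on log2(value + 1), with 8 group means over 24 libraries, a variance trend, 16 residual and 8.05 prior degrees of freedom, two-sided, with Benjamini-Hochberg adjustment over 20162 entries. The test was tried on simulated data. Python 3.11.15 was used for the rest. Named genes are, per comparison, up to 10 called members with the largest changes in each direction, 18 widely studied junction genes where a result turns on them, and listed partners or factors called with at least 2-fold. A few members enter the counts but are not reported here singly. The members and lists were chosen with earlier results of these data known. Alternatives were other scalings, pseudocounts, filters, voom weights, a fit of the compared groups alone, a replicate block, leaving out each library, and locus sums. Samples were not treated as paired by replicate number in the main fit. Same-numbered deviations correlated between -0.332 and 0.263, and in none of 10 comparisons were all above 0.1. With 3 libraries per group such a check cannot exclude pairing.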

Additional observations from a re-analysis of the deposited data

Results flagged for a closer look

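The change under R5020 with water differed between T47D-co and T47D-Y by the interaction test of limma (adjusted p under 0.05) in 24 junction genes. Each value is the log2 change in T47D-co minus that in T47D-Y. The more positive changes in T47D-co included those of PKP1 (4.83), GJB2 (3.47), GJB6 (3.38), GJA3 (3.31), MARVELD3 (1.43), CLDN8 (1.23), CLDN5 (0.87), CLDN15 (0.76), GJC1 (0.59), DSC2 (0.58), MARVELD1 (0.49), CTNNA1 (0.40) and DSG2 (0.15). The more negative ones were those of CLDN16 (-3.05), CLDN1 (-2.26), CTNND2 (-1.15), CLDN3 (-1.13), TJP3 (-1.06), GJB5 (-0.93), CLDN4 (-0.76), PKP2 (-0.65), CGN (-0.38) and DSP (-0.33). The calls of CLDN5 and DSG2 were lost in 8 and 6 of the 12 fits that left out 1 library. GJB6 was tested because of the groups in which it is high, T47D-co with R5020, so its direction was favoured by the filter. GJB5 shares a locus whose sum gave a difference of 0.09 (adjusted p = 0.325).

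The R5020 change of CTNND2 in T47D-co differed between IFN and water by -0.93 (SE 0.14, adjusted p = 0.00123), the same test between 2 treatments.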

How the results depend on the processing

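Of 142 calls of single junction genes, 115 kept their call and direction under all alternatives tried, 25 lost the call under at least 1, and 6 changed sign under 1. On the deposited values without rescaling the number of junction genes called for IFN was 16 in T47D-co with EtOH, 26 in T47D-Y with EtOH, 16 in T47D-co with R5020 and 29 in T47D-Y with R5020, all lower, and 16 for line by IFN. The share of all tested genes is not given for these counts, so they are not a result about junction genes in particular. The deposited values were scaled separately per block. There CTNNA1 turned to -0.11 (IFN in T47D-co with R5020), and MARVELD2 to -0.33 (IFN in T47D-Y with R5020) and -0.11 (T47D-co against T47D-Y with water). Quantile normalization gave 1 for IFN in T47D-Y with EtOH, and upper-quartile factors 0 for IFN in T47D-Y with R5020. Voom weights gave 1 for IFN in T47D-co with EtOH, 2 for IFN in T47D-Y with R5020 and 0 for R5020 by IFN. Fits of the compared groups alone gave 0 for R5020 in T47D-Y with water and with IFN, 3 for IFN in T47D-co with R5020, 0 for IFN in T47D-Y with R5020 and 0 for R5020 by IFN. Without the 4 libraries low in mitochondrial transcripts, R5020 in T47D-Y with water and IFN in T47D-Y with R5020 gave 0; this left T47D-Y R5020 water with 1 library, assumed to vary like the other groups, so these counts say nothing about those libraries. Among the 24 genes alone at their locus, 18 differed between the lines with water and 18 with IFN, and the share of all such entries is not given here. With locus sums, IFN in T47D-Y with EtOH gave 2, GJB5 turned to 0.04 (R5020 in T47D-co with water) and 0.088 (line by R5020), and CLDN20 to 0.18 (T47D-co against T47D-Y with water). Apart from the block-wise scaling, the smaller sets and the locus sums, the cause was not tested.

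Leaving out each library gave 27 to 28 calls for R5020 in T47D-co with water and with IFN, 0 to 1 in T47D-Y with water and with IFN, 0 to 0 for IFN in T47D-co with EtOH, 0 to 1 in T47D-Y with EtOH, 1 to 5 in T47D-co with R5020 and 0 to 0 in T47D-Y with R5020. For T47D-co against T47D-Y it gave 27 to 31 with water and 27 to 29 with IFN, for line by R5020 22 to 26, for line by IFN 0 to 0 and for R5020 by IFN 1 to 2. With the replicate number as a block, IFN in T47D-co with EtOH gave 1 call and IFN in T47D-Y with R5020 gave 0; R5020 in T47D-co with water gave 29 calls. The fit with 3 libraries per group, and values under 10 scaled fragments, limit what can be said of GJA5, DSC1, CLDN2, CLDN18 and GJB6 at their low ends.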
